A study of Rattus norvegicus with 10 samples.

Results

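The genes described here encode chaperones of the endoplasmic reticulum (ER) and regulators of the unfolded protein response in the rat mammary gland. They are *Hspa5*, *Hsp90b1*, *Calr*, *Pdia3*, *Pdia4*, *Xbp1*, *Atf6*, *Atf4*, *Ddit3* and *Herpud1*, chosen by name. Every probe set that the array annotation gives to one of these symbols alone was kept, under the current or a former symbol. This gave 12 probe sets of the 31042 tested, for 10 genes of the 14217 with a named probe set. *Atf6* and *Pdia3* have 2 probe sets each and the other 8 genes have 1.

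Whole mammary glands of 5 female ACI rats (ACI/SegHsd) and 5 female BN (Brown Norway) rats were compared. All rats received 17β-estradiol (E2) continuously from a subcutaneous implant for 12 weeks, starting at 9 weeks of age, and each gland was hybridized to its own array. The comparison asks how the glands of a strain susceptible to E2-induced mammary cancer differ from those of a resistant strain under the same hormone. Per the study's methods, all rats were also given BrdU, a label of dividing cells, shortly before death. Both strains are inbred, and no untreated rats are among these arrays, so that the values compare the strains and do not measure what E2 changed in either.

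Values are log2 expression levels per probe set, and a log2 fold change is the ACI mean minus the BN mean. On each array 30.6% to 33.3% of the probe sets sat at the lowest value of the data, 2.23, and a probe set under 4 in every rat of a strain is described as near background there. Array medians ran from 3.35 to 3.53, and correlations between arrays were 0.981 to 0.995 for pairs of ACI rats, 0.957 to 0.992 for pairs of BN rats and 0.935 to 0.960 for pairs across strains. The animal IDs in the labels open with S for rats 1 to 3 and with H for rats 4 and 5 of each strain, and the sources used here do not say what the letters mean. The arrays of the strains were deposited separately, so that deposit and strain cannot be told apart. The RNA isolation text of the BN arrays speaks of ACI rats, although their strain field reads Brown Norway.

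Proteins that enter the secretory pathway fold in the ER, where Hspa5 (BiP), Hsp90b1 (GRP94) and the lectin chaperone Calr hold unfolded chains and the Pdia enzymes form and exchange their disulfide bonds. When unfolded chains accumulate, the sensors IRE1, PERK and ATF6 start the unfolded protein response: IRE1 splices the *Xbp1* transcript, PERK raises translation of *Atf4*, which in turn induces *Ddit3* (CHOP), and cleaved ATF6 enters the nucleus and induces chaperone genes. In mice, *Xbp1* is needed for the development of antibody-secreting plasma cells and for the expansion of the ER in the lactating mammary gland.

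Of the 12 probe sets, 2 were called at an adjusted p under 0.05 from limma, the one of *Xbp1* higher in ACI rats and the one of *Ddit3* higher in BN rats. Among all probe sets tested, 12.7% were called, 6.79% as higher in ACI and 5.87% as higher in BN, and among all genes 17.4% were called, 8.29% as higher in ACI and 9.12% as higher in BN. At an unadjusted p under 0.05 there were 5 of the 12, against 24.9% of all probe sets. In 3 of the 12, those of *Xbp1* and both of *Pdia3*, no ACI value overlapped a BN value, as in 12.3% of all probe sets. The median log2 fold change over the 10 genes was -0.05, beside 0 over all genes. The SD between rats was larger in BN than in ACI in 8 of the 11 probe sets above background. The share over all probe sets was not computed. Over whole arrays, pairs of BN rats also correlated less (down to 0.957) than pairs of ACI rats (down to 0.981). The count is therefore not a trait particular to these genes.

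**Figure D1:**
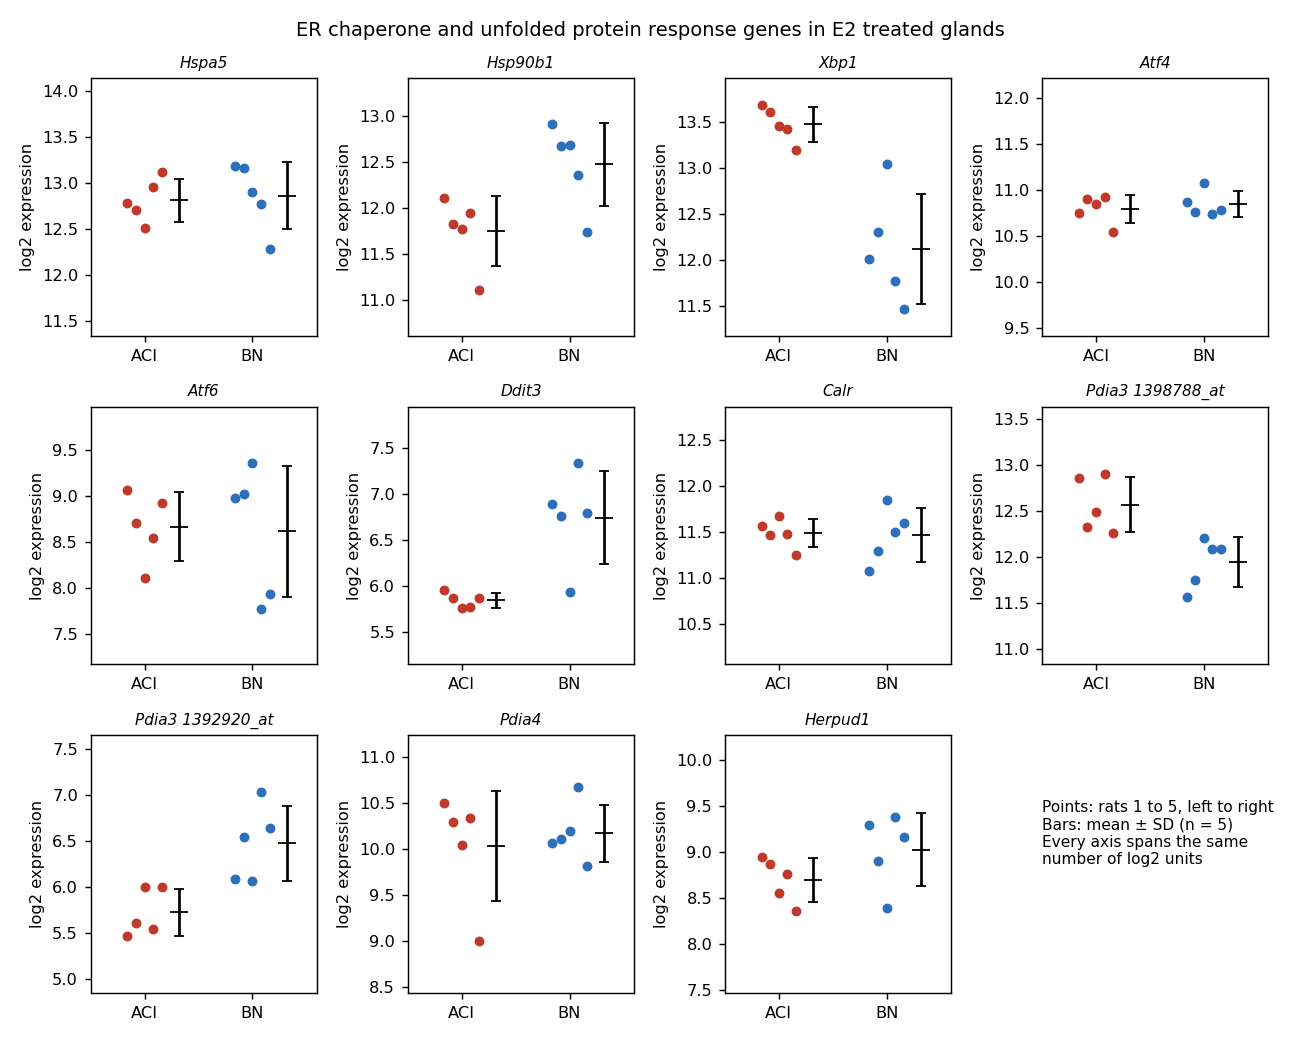
Log2 expression of 11 probe sets of the chaperone and unfolded protein response genes, with 1 point per rat (rats 1 to 5 from left to right, ACI in red, BN in blue) and the mean ± SD (n = 5) beside each strain. The 5 ACI rats lay above all BN rats for *Xbp1*, 4 of the 5 BN rats lay above all ACI rats for *Ddit3*, and the second *Atf6* probe set, which was at the lowest value of the data, is left out.

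Among the chaperones, no strain difference was called for *Hspa5*. ACI rats 1 to 5 had log2 levels of 12.79, 12.71, 12.51, 12.96 and 13.12, and BN rats 1 to 5 had 13.19, 13.17, 12.90, 12.78 and 12.29. The strains overlapped over most of their range, and the log2 fold change was -0.05 (standard error, SE, of 0.190, 95% interval -0.48 to 0.39, adjusted p = 1 from limma). The order of the strains turned with the ID series, however: in series S the 3 ACI rats all lay below the 3 BN rats, a difference of -0.42, and in series H the 2 ACI rats lay above the 2 BN rats, a difference of 0.51. The interaction of strain and series was 0.92 (SE 0.243), with an adjusted p of 0.108 from limma over all probe sets.

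*Hsp90b1*, which encodes the ER member of the HSP90 family, was at 12.10, 11.82, 11.77, 11.94 and 11.10 in ACI rats 1 to 5, against 12.91, 12.67, 12.68, 12.35 and 11.74 in BN rats 1 to 5. BN rats 1 to 4 lay above every ACI rat, and BN rat 5 fell within the ACI range. The difference, ACI minus BN, was -0.72 (SE 0.259, 95% interval -1.32 to -0.13), which missed the threshold at an adjusted p of 0.118 from limma (two-sided exact permutation p = 0.0397). It passed without BN rat 5, at -0.91 and an adjusted p of 0.0288, and within ID series S, at -0.86 and an adjusted p of 0.0201. The *Hsp90b1* difference also passed in limma with the ID series as a block (adjusted p = 0.0495) and without BN rats 4 and 5 (-1.01, adjusted p = 0.0243). The same held without probe sets averaging under 4 (adjusted p = 0.0450) and after centring each array on its expressed probe sets (adjusted p = 0.026). In series H the difference was -0.53 (adjusted p = 0.730). Most alternatives did not call *Hsp90b1*: it passed in 7 of 22 settings, the replicate number as a block among them. Of the 10 fits without 1 rat it passed in 1, and adjusted p-values from limma ran up to 0.241. It also missed the threshold in limma after quantile normalization (adjusted p = 0.0674) and with a trended and robust variance (adjusted p = 0.143).

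*Calr*, which encodes the calcium-binding lectin chaperone calreticulin, had 11.57, 11.47, 11.68, 11.48 and 11.26 in ACI rats and 11.08, 11.30, 11.85, 11.51 and 11.60 in BN rats. The ACI values lay inside the BN range. Its log2 fold change was 0.02 (SE 0.145, 95% interval -0.31 to 0.35, adjusted p = 1 from limma).

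The 2 probe sets of *Pdia3*, which encodes the disulfide isomerase ERp57 that works on glycoproteins held by calreticulin and calnexin, pointed in opposite directions. The probe set 1398788_at, with the higher mean, gave 12.86, 12.32, 12.49, 12.90 and 12.26 in ACI rats and 11.56, 11.75, 12.21, 12.09 and 12.09 in BN rats. The probe set 1392920_at gave 5.47, 5.61, 6, 5.55 and 6 in ACI rats and 6.09, 6.55, 6.07, 7.03 and 6.64 in BN rats. Neither overlapped between strains, the first with all ACI rats above BN and the second with all ACI rats below. The log2 fold changes were 0.63 (SE 0.177, adjusted p = 0.0536 from limma) and -0.75 (SE 0.208, adjusted p = 0.0506 from limma), with a two-sided exact permutation p of 0.00794 for each, the smallest that 5 rats against 5 allow. Both passed when probe sets with a mean under 4 were left out of the fit, at adjusted p-values of 0.0248 and 0.0188 from limma. The second also passed without BN rat 1 (-0.85, adjusted p = 0.0495) and without BN rat 3 (-0.85, adjusted p = 0.0382), and the first in none of the 10 fits without 1 rat. The mean over both gave -0.06 (adjusted p = 0.828), so that no single direction can be given for the gene.

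*Pdia4*, which encodes the disulfide isomerase ERp72, had 10.50, 10.29, 10.04, 10.34 and 9.00 in ACI rats and 10.07, 10.11, 10.19, 10.67 and 9.82 in BN rats. In each strain rat 5 was the lowest, and ACI rat 5 lay more than 1 log2 unit below the other ACI rats. The log2 fold change of -0.14 had a 95% interval of -0.81 to 0.54 (adjusted p = 0.913 from limma).

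**Figure D2:**
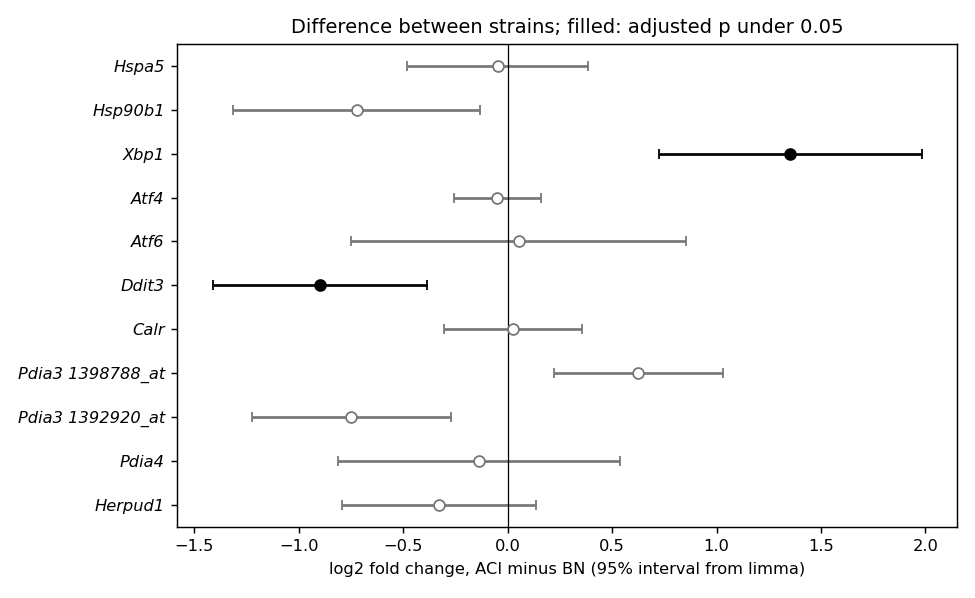
Log2 fold change (ACI minus BN) of each probe set above background with its 95% interval from limma; filled points passed at an adjusted p under 0.05. Only *Xbp1* at 1.35 and *Ddit3* at -0.90 are filled, the 2 *Pdia3* probe sets stand on opposite sides of 0, and the intervals of *Hspa5*, *Atf4*, *Atf6*, *Calr*, *Pdia4* and *Herpud1* include 0.

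*Xbp1*, which encodes the transcription factor that IRE1 activates by splicing, was higher in ACI glands. The probe set had log2 levels of 13.68, 13.61, 13.45, 13.42 and 13.19 in ACI rats 1 to 5, against 12.01, 12.30, 13.04, 11.77 and 11.46 in BN rats 1 to 5. No BN rat reached the ACI range, although BN rat 3 came within 0.15 of the lowest ACI rat, and the BN rats spread over 1.58 log2 units where the ACI rats spread over 0.49. The means were 13.47 ± 0.190 in ACI and 12.12 ± 0.602 in BN (SD, n = 5 each). *Xbp1* thus had a log2 fold change of 1.35 (SE 0.275, 95% interval 0.72 to 1.98, adjusted p = 0.0144 from limma), a level 2.56-fold higher in ACI (interval 1.65 to 3.96). The two-sided exact permutation p was 0.00794. Spliced and unspliced forms were not measured apart, so these values say nothing of IRE1 activity.

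The *Xbp1* call held whichever 1 of the 10 rats was left out, with log2 fold changes of 1.19 to 1.59 and adjusted p-values of 0.00141 to 0.0408. The difference had the same sign in both ID series, 1.13 in series S (adjusted p = 0.0841) and 1.69 in series H (adjusted p = 0.160), neither of which passed in its smaller set of rats. In whole glands, a smaller share of the cells that hold a transcript and less transcript per cell cannot be told apart.

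Markers of luminal epithelium were measured beside *Xbp1*. Of 14 such genes, 4 were called higher in ACI, none in BN and 10 were not called, and their mean log2 level was 8.66 to 8.99 in ACI rats and 7.69 to 8.61 in BN rats. BN rat 3, whose *Xbp1* level was nearest to ACI, had the BN maximum of 8.61 and BN rat 5, with the lowest *Xbp1* level, the minimum of 7.69. Of the 4 keratins listed for these cells, *Krt18* was higher in ACI (log2 fold change 1.02, adjusted p = 0.0391 from limma) while *Krt8* had a log2 fold change of 0.22 (adjusted p = 0.714), *Krt19* one of -0.18 (adjusted p = 0.901) and *Krt7* one of -1.53 (adjusted p = 0.0712). The probe sets of *Esr1* and *Foxa1* were at the lowest value in all rats. With the luminal mean of each array as a covariate, the *Xbp1* difference was 0.26 (SE 0.270, adjusted p = 0.810). This mean did not overlap between strains, and neither did that of the plasma and B cell markers described next, so that strain and marker level cannot be told apart in any fit with either mean as a covariate, for *Xbp1* or for *Ddit3*.

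Markers of plasma cells, which also express *Xbp1* strongly, were taken in 1 list with markers of B cells. The markers of this list were higher in BN where called. Of 18 genes listed, 9 were measured, and the calls were 6 toward BN and none toward ACI, with a mean log2 level of 3.51 to 3.62 in ACI rats, against 5.38 to 8.68 in BN rats. *Jchain* averaged 6.69 in ACI and 10.55 in BN, and *Mzb1*, an ER protein of antibody-secreting cells, averaged 2.27 in ACI and 7.70 in BN. In ACI rats 7 of the 9 genes were near background, and in BN rats none was. With this list as a covariate the *Xbp1* difference was 0.05 (SE 0.581, adjusted p = 1). Milk protein markers had means of 14.85 to 14.98 in ACI rats and 14.38 to 14.76 in BN rats (4 of 7 called toward ACI and 1 toward BN), basal and myoepithelial markers 8.63 to 9.04 in ACI and 8.18 to 8.79 in BN (1 of 8 toward ACI), adipocyte markers 9.42 to 10.54 in ACI and 10.20 to 10.98 in BN (2 of 9 toward BN), and skeletal muscle markers 7.14 to 11.55 in ACI and 3.83 to 10.56 in BN (none of 10 called). The muscle list had a median log2 fold change of 3.435, toward ACI, with a wide spread between rats. Its lack of calls therefore does not show equal muscle content in the strains. The part of the milk protein, basal, adipocyte and muscle markers in the result was not tested.

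The upstream window of *Xbp1* is shown because the gene carries, close to its start, the ER stress response element (ERSE), the site at which ATF6 and XBP1 bind together with NF-Y. The window is the stretch of 250 bases before the annotated start in RefSeq (GRCr8, which is an assembly of the BN strain, chr14:84604373-84604622, plus strand). The fixed bases of the ERSE, spelled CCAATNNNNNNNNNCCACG and searched on both strands, are in capitals.
Xbp1: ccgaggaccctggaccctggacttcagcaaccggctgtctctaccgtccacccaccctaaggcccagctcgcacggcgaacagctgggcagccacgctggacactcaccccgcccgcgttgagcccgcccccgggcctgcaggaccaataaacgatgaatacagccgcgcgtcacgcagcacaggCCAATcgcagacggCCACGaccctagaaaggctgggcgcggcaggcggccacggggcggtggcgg

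The match lay 65 to 47 bases before the start, on the strand of the gene. In all, 8 of the 10 genes had a promoter window of 250 bases before to 50 bases after the start, those of *Atf6* and *Pdia3* not being in the table used. An exact ERSE stood in the windows of 4 of the 8, *Hspa5*, *Hsp90b1*, *Xbp1* and *Calr*, in 5 sites, against 22 (0.0657%) of 33469 rat promoter windows of the same length. The ERSE was searched because it is already known from ER stress genes such as these. Its presence here is therefore a description and no independent evidence of enrichment. The sites of the chaperone genes are shown with up to 20 flanking bases on each side, read on the strand on which the motif stands, to show that the same fixed bases recur in genes whose strain differences were unlike: *Hspa5* (chr3:38452953-38453011, plus strand), the distal site of *Hsp90b1* (chr7:23012431-23012489, minus strand), its proximal site (chr7:23012327-23012385, plus strand) and *Calr* (chr19:40213117-40213173, minus strand).
Hspa5: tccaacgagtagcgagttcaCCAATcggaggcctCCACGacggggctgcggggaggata
Hsp90b1, distal site: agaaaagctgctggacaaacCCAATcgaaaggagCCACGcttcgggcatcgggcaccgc
Hsp90b1, proximal site: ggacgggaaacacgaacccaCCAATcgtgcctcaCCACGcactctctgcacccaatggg
Calr: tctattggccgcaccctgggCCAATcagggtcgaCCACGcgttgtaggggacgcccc

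These 4 genes had log2 fold changes of -0.05 (*Hspa5*), -0.72 (*Hsp90b1*), 1.35 (*Xbp1*) and 0.02 (*Calr*), so that an exact ERSE went with a call in 1 of the 4. Over the whole genome table, 21 named genes had an exact ERSE, and 17 of them were measured. Of these 17, 2 were called higher in ACI, *Xbp1* and the protein phosphatase gene *Ppm1l* at 1.64 (adjusted p = 0.000807 from limma), 1 was called higher in BN, the zinc finger gene *Zfand2a* at -0.78 (adjusted p = 0.0319 from limma), and 14 were not called. Of those not called, *Birc5*, *Calr4*, *Foxd4* and *Zfp57* averaged only 3.31, 2.30, 2.235 and 2.31 over all rats, levels at which a difference can be missed. The median log2 fold change of the 17 genes was 0.01, beside 0 over all genes, of which 17.4% were called. A match of letters is not a bound site, and no binding was measured.

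**Figure D3:**
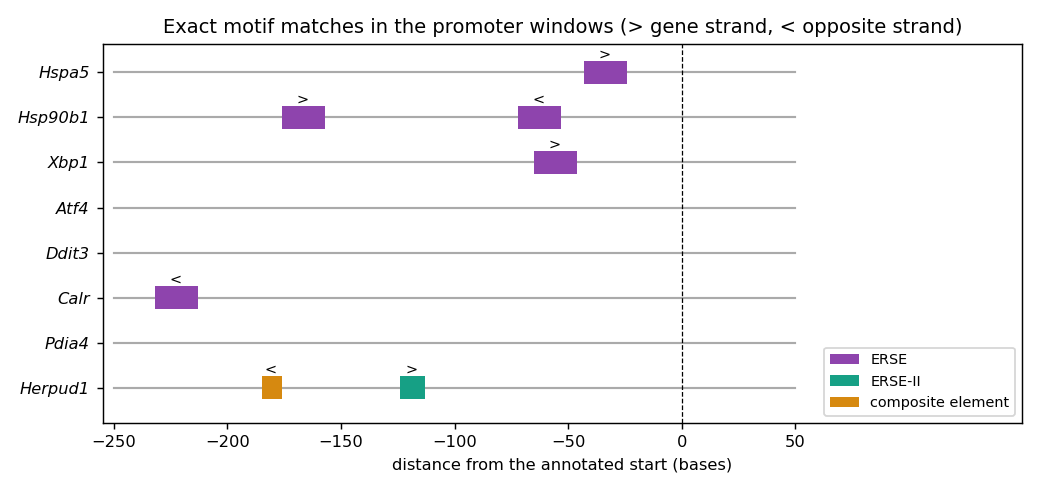
Positions of exact matches to the ERSE, the ERSE-II and the composite element in the 300-base promoter windows of 8 genes; the x axis is the distance from the annotated start in bases, and arrowheads give the strand of the match. The ERSE sites lie between 232 and 25 bases before the start, *Herpud1* holds the other 2 motifs, and *Atf4*, *Ddit3* and *Pdia4* have no exact match.

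*Atf6*, which encodes the membrane-bound sensor that is cleaved to a transcription factor, had 9.06, 8.70, 8.10, 8.54 and 8.92 in ACI rats and 8.98, 9.02, 9.36, 7.77 and 7.93 in BN rats on the probe set 1392475_at. The BN rats of series S lay at or above 8.98 and those of series H at or below 7.93, with the ACI rats between 8.10 and 9.06. The overall log2 fold change was 0.05 (SE 0.351, 95% interval -0.75 to 0.86, adjusted p = 1 from limma). The difference was -0.50 in series S and 0.88 in series H, and the interaction of 1.38 (SE 0.409) had an adjusted p of 0.140 from limma, or 0.0487 when probe sets with a mean under 4 were left out. None of the 12 probe sets passed for the interaction in limma's fit over all probe sets, where 2.76% were called, and 2 of them, those of *Hspa5* and *Atf6*, had an unadjusted p under 0.05, against 17.8% of all. The second *Atf6* probe set, 1384957_at, was at the lowest value of 2.23 in 9 rats and at 2.24 in ACI rat 1, and gives no level.

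*Atf4*, which encodes the transcription factor of the PERK branch, varied little within or between strains. It had 10.75, 10.90, 10.85, 10.93 and 10.55 in ACI rats and 10.87, 10.76, 11.08, 10.74 and 10.78 in BN rats. The log2 fold change was -0.05 (SE 0.0906), with a 95% interval of -0.26 to 0.16 (adjusted p = 0.852 from limma). ATF4 is set mainly by translation, which arrays do not measure.

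*Ddit3*, which encodes the transcription factor CHOP, a target of ATF4 that promotes cell death in lasting ER stress, was higher in BN glands. ACI rats 1 to 5 had 5.96, 5.87, 5.76, 5.77 and 5.87, against 6.89, 6.76, 5.94, 7.34 and 6.80 in BN rats 1 to 5. The ACI rats lay within 0.20 log2 units of each other, and BN rat 3 fell among them at 5.94. The means were 5.85 ± 0.0826 in ACI and 6.75 ± 0.507 in BN (SD, n = 5 each). *Ddit3* thus had a log2 fold change of -0.90 (SE 0.224, 95% interval -1.41 to -0.39, adjusted p = 0.0333 from limma), a level 1.87-fold higher in BN (interval 1.31 to 2.66). The two-sided exact permutation p was 0.0159.

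Of the 10 fits with 1 rat left out, the *Ddit3* call was kept in 2, those without BN rat 3 (-1.10, adjusted p = 0.00126) and without BN rat 4 (-0.75, adjusted p = 0.0488), and it was lost without any 1 of the 5 ACI rats or of BN rats 1, 2 and 5, at adjusted p-values of up to 0.0819. Without both BN rats 4 and 5 it was -0.68 (adjusted p = 0.0759). The difference was -0.67 in series S (adjusted p = 0.249) and -1.25 in series H (adjusted p = 0.274). BN rat 3, the BN rat with the least *Ddit3*, also had the lowest mean of the plasma and B cell markers at 5.38 and the highest mean of the luminal markers at 8.61 among BN rats. With the plasma and B cell mean as a covariate the difference was 0.43 (SE 0.349, adjusted p = 1), and with the luminal mean it was -0.15 (SE 0.300, adjusted p = 0.998), fits in which strain and marker level cannot be told apart. Among macrophage markers 5 of 10 were called, each toward BN, with a mean of 8.22 to 8.84 in ACI rats and 9.20 to 9.86 in BN rats. BN rat 3, lowest in *Ddit3* among BN rats, had the highest macrophage mean, 9.86. The part of these markers in the result was not tested.

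The upstream window of *Ddit3* (RefSeq, GRCr8, chr7:65001445-65001694, plus strand, 250 bases before the start) is shown beside that of *Xbp1* because it belongs to the other called gene. Unlike that of *Xbp1*, it holds no exact match to any of the motifs searched, so that no base is in capitals. Sites more than 250 bases before the start were not searched, so that an element farther upstream would be missed. With 1 mismatch allowed, however, *Ddit3* was among the 7 of 8 genes whose window held an ERSE, beside 1.41% of all windows.
Ddit3: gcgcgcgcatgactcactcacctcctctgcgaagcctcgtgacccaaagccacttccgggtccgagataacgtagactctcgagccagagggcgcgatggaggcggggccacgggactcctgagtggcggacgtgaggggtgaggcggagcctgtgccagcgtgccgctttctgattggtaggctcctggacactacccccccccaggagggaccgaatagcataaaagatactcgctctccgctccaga

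*Herpud1*, which encodes a membrane protein that serves ER-associated degradation and is induced by several branches of the response, had 8.95, 8.87, 8.56, 8.76 and 8.36 in ACI rats and 9.30, 8.90, 8.39, 9.38 and 9.17 in BN rats. BN rats 1, 4 and 5 lay above all ACI rats and BN rat 3 near the bottom of the ACI range. The log2 fold change was -0.33 (SE 0.204, 95% interval -0.79 to 0.14, adjusted p = 0.400 from limma). BN rat 3 was thus the lowest BN rat for both *Ddit3* and *Herpud1* and the highest for *Xbp1*.

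The window of *Herpud1* was the only one of the 8 with an exact ERSE-II (ATTGGNCCACG, found in 0.0508% of all windows) and with an exact composite element of ATF4 and CHOP (TGATGNAAN, found in 3.97%). Both are shown, with the fixed bases in capitals, because they join the sites of the ATF6 and PERK branches in 1 window: the ERSE-II at chr19:10614801-10614851 (minus strand, that of the gene) and the composite element at chr19:10614864-10614912 (plus strand). They lay 124 to 114 and 185 to 177 bases before the start and did not overlap. Both motifs were likewise searched as known elements of this response, so that finding them here is a description only.
Herpud1, ERSE-II: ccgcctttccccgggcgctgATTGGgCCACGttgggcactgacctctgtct
Herpud1, composite element: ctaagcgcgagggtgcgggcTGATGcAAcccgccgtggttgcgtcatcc

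**Figure D4:**
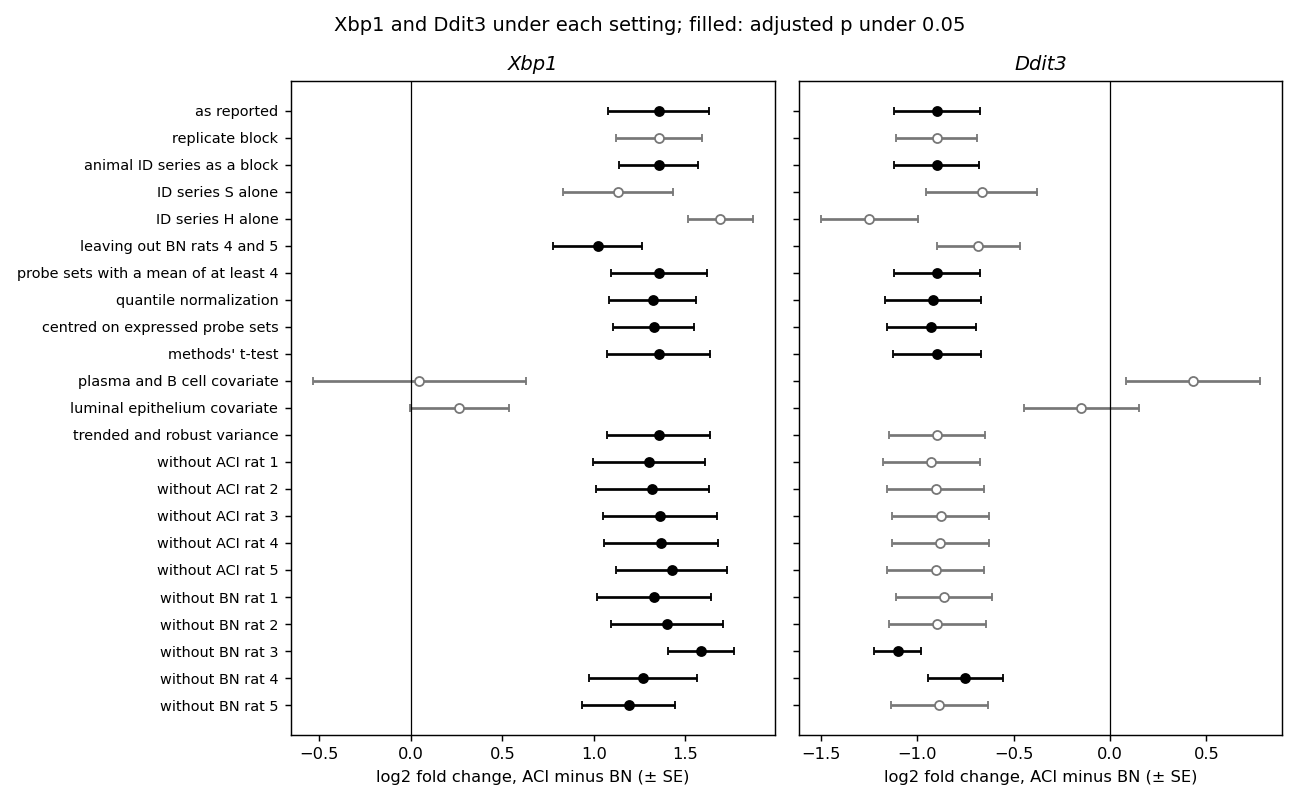
Log2 fold change (ACI minus BN) ± SE of *Xbp1* (left) and *Ddit3* (right) under each setting of the fit; filled points passed at an adjusted p under 0.05. *Xbp1* stayed filled without each single rat (1.19 to 1.59) and *Ddit3* without 2 of the 10, and both moved toward or past 0 with a marker list as covariate, where strain and marker level cannot be told apart.

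Beside these 10 genes, 187 further genes of the pathway were described in 9 lists, and 175 of them were measured. Of these, 14 were called higher in ACI and 10 higher in BN, 13.7% together, where 17.4% of all genes were called. The median log2 fold change of the 175 was 0.004. The calls toward ACI and BN were 17 and 22 after centring each array on its expressed probe sets, and 18 and 25 in series S alone. They were 13 and 26 without BN rat 5, and 18 and 33 without BN rats 4 and 5. When probe sets with a mean under 4 were left out they were 24 and 18. Calls toward ACI also outnumbered those toward BN with the probe sets of each gene averaged. By list, the share of genes called ran up to 27.3% in the calnexin cycle, beside the 17.4% of all genes. The largest median sizes were -0.42 in the list of ER stress cell death, 0.34 in the calnexin cycle and -0.28 among the other chaperones. In the list of ER stress cell death, limma called none of 8 genes. The 1 gene there with an unadjusted p under 0.05 from limma, *Traf2* at 0.51, was higher in ACI, opposite to the list median. Of the 21 called genes that the rule for named genes took from these lists, 11 kept their call in all 10 fits without 1 rat. The other 10 kept it in 1 to 3 of those fits, with adjusted p-values of up to 0.114.

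The sensors, eIF2α kinases and phosphatase subunits showed 1 call among 14 genes. *Mbtps1*, which encodes the protease that makes the first cut in ATF6, had a log2 fold change of 0.69 (adjusted p = 0.0261 from limma). Its level was 9.54 ± 0.190 in ACI rats and 8.85 ± 0.317 in BN rats (SD, n = 5 each), and the ranges overlapped. The PERK gene *Eif2ak3*, named here after its value was seen, had 0.01 (adjusted p = 1).

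Few target genes of ATF4 and CHOP were called. Of 26 measured, 1 was called higher in ACI and 2 higher in BN, 11.5% together beside 17.4% of all genes, with a median of 0.06. *Phgdh*, the entry enzyme of serine synthesis, had 10.37, 10.22, 9.46, 9.94 and 9.56 in ACI rats and 8.36, 8.31, 8.34, 8.30 and 8.10 in BN rats, a difference of 1.63 (SE 0.180, adjusted p = 0.000825 from limma). *Atf3*, a stress-induced transcription factor gene, had 5.62, 5.71, 6.02, 5.78 and 5.05 in ACI rats and 6.09, 6.80, 6.89, 6.77 and 6.65 in BN rats, a difference of -1.004 (SE 0.210, adjusted p = 0.0161). Neither overlapped between strains. *Slc7a11*, the cystine carrier of the system that feeds glutathione synthesis, was near background in ACI rats at a mean of 2.45 and averaged 5.22 in BN rats (adjusted p = 0.00238 from limma), so that its difference of -2.77 is a lower bound in size.

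Among 23 other chaperones and co-chaperones, 1 was called higher in ACI and 3 higher in BN. *Sil1*, the nucleotide exchange factor of Hspa5, had a log2 fold change of 0.56 (adjusted p = 0.0358 from limma). *Fkbp10* and *Fkbp7*, prolyl isomerases of the ER, each had -1.49, with adjusted p-values of 0.00217 and 0.00621. *Fkbp10* had 4.31, 4.23, 4.44, 4.07 and 4.44 in ACI rats and 5.56, 6.06, 6.26, 5.91 and 5.15 in BN rats. All ACI rats lay below all BN rats for both. *Dnajc10*, a disulfide reductase that works with Hspa5 and lies outside the rule for named genes, was the third, at -0.99 (adjusted p = 0.00103).

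In the calnexin cycle and the sorting of glycoproteins, 2 of 11 genes were called higher in ACI and 1 higher in BN. *Lman1* and *Mcfd2* encode the 2 parts of a cargo receptor between ER and Golgi, and had log2 fold changes of 0.81 (adjusted p = 0.0421 from limma) and 0.65 (adjusted p = 0.00509), each without overlap between strains. For *Lman1*, however, the lowest ACI rat was at 5.53 and the highest BN rat at 5.52. The *Lman1* call was kept in 1 of the 10 fits without 1 rat, and the *Mcfd2* call in all 10. *Mcfd2* had 9.15, 9.61, 9.29, 9.44 and 9.18 in ACI rats and 8.65, 8.67, 8.53, 8.93 and 8.65 in BN rats. *Uggt2*, a glucosyltransferase that returns glycoproteins to the cycle, had -1.43 (adjusted p = 0.0370), with a mean of 3.81 in ACI rats and 5.25 in BN rats.

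Of 16 further disulfide oxidoreductases, *Pdia5* was the 1 gene called. It had 8.31, 8.01, 8.09, 8.47 and 8.26 in ACI rats and 7.48, 7.37, 7.32, 7.13 and 6.26 in BN rats, a difference of 1.12 (SE 0.229, adjusted p = 0.0150 from limma). It thus joined *Xbp1* among the genes higher in every ACI rat, and its call was kept in all 10 fits without 1 rat.

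In ER-associated degradation, 2 of 23 genes were called in each direction, 17.4% together, the same share as over all genes. *Selenos* and *Rnf5*, which encode a selenoprotein of the retrotranslocation complex and a ubiquitin ligase, had log2 fold changes of 0.64 (adjusted p = 0.00463 from limma) and 0.52 (adjusted p = 0.0300). *Sel1l*, the adaptor of the ligase HRD1, had -1.07 (adjusted p = 0.0280), and *Erlec1*, a lectin that delivers glycoproteins to that complex, had -0.68 (adjusted p = 0.0467). A second probe set of *Erlec1* had -0.31 (adjusted p = 0.276). Only *Selenos* of these 4 had no overlap between strains and kept its call in all 10 fits without 1 rat.

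Of 39 genes of the translocon, signal peptidase, oligosaccharyltransferase and COPII coat, 4 were called higher in ACI and 1 higher in BN. *Sec24d*, a cargo adaptor of the COPII coat, had 10.28, 10.44, 10.31, 10.44 and 9.96 in ACI rats and 8.60, 8.76, 8.71, 9.53 and 8.97 in BN rats, a difference of 1.37 (SE 0.183, adjusted p = 0.00192 from limma). *Ssr2*, a subunit of the translocon-associated complex, had 10.80, 10.79, 10.75, 10.66 and 10.52 in ACI rats and 9.35, 9.69, 10.43, 9.54 and 9.52 in BN rats, a difference of 0.998 (SE 0.191, adjusted p = 0.0109). As for *Xbp1*, all ACI rats were above all BN rats and BN rat 3 was nearest to them for *Ssr2*. The other calls toward ACI, outside the rule for named genes, were *Spcs2* at 0.46 and *Sar1b* also at 0.46. *Srp14*, of the signal recognition particle, was higher in BN at -0.65 (adjusted p = 0.0375).

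Among 15 genes of ER calcium handling, 2 were called higher in ACI and 1 higher in BN. *Tmbim6*, a membrane protein that limits ER calcium and IRE1, had 0.53 (adjusted p = 0.0114 from limma), and a second probe set had 0.26 (adjusted p = 0.333). The calcium pump gene *Atp2a2* had 0.42 (adjusted p = 0.0376), while another of its probe sets had -0.86 (adjusted p = 0.163), so that its direction differed between probe sets. *Atp2a3*, which encodes another calcium pump of the ER, was near background in ACI rats at a mean of 3.07, and had 7.11, 6.11, 3.36, 6.61 and 6.38 in BN rats (adjusted p = 0.0241). BN rat 3 was at the ACI level for this gene, as it was for *Ddit3*.

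**Figure D5:**
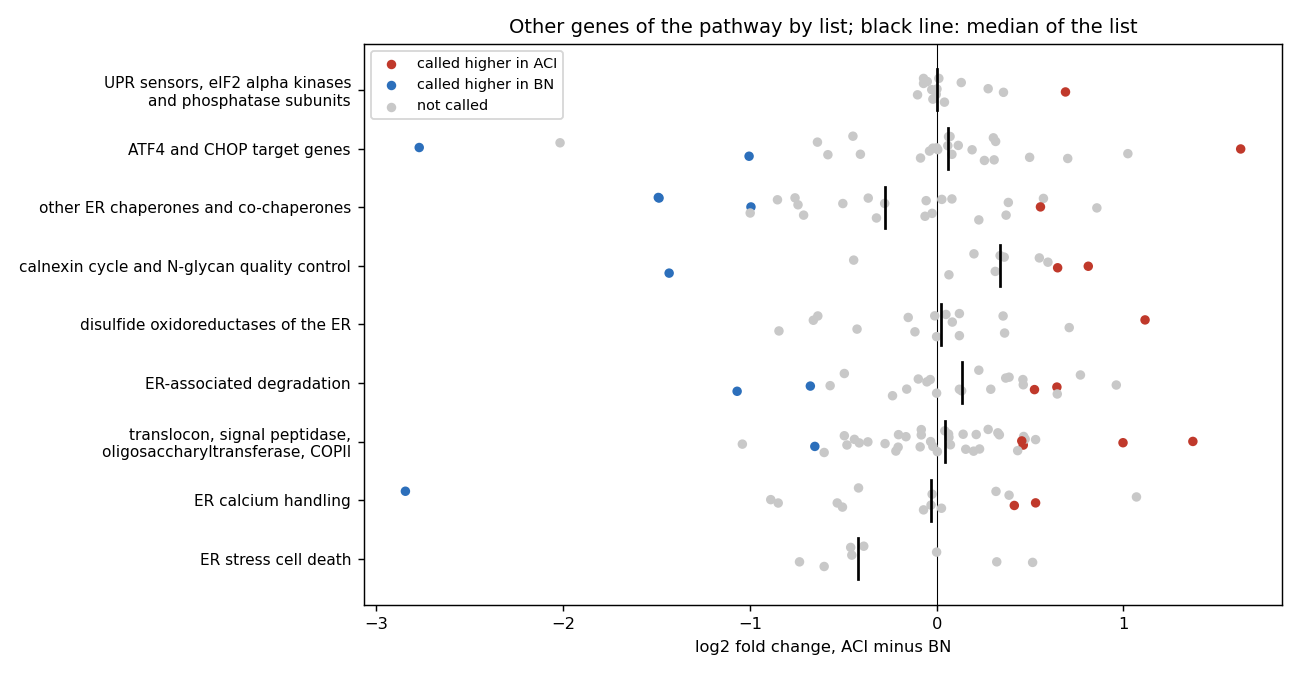
Log2 fold change (ACI minus BN) of the 175 measured genes of 9 pathway lists, 1 point per gene by its representative probe set, with the list median as a black line and calls toward ACI in red and toward BN in blue. Calls lie on both sides in most lists, and the medians run from -0.42 to 0.34.

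The genes whose profile over the 10 arrays was most like that of each called gene were found by the root-mean-square difference between profiles centred on their own mean, among 7303 genes with a mean of at least 6. For *Xbp1* these were *Camsap3*, *Aldoc* and *Klc3*, which encode a microtubule end-binding protein, a glycolytic aldolase and a kinesin light chain, at root-mean-square differences of 0.145, 0.200 and 0.205 log2 units, where the *Xbp1* profile itself varied by 0.786 around its mean. For *Ddit3* they were *Pygl*, which encodes the liver form of glycogen phosphorylase, *Lix1l* and *Abcg3l1*, at 0.119, 0.136 and 0.159, where *Ddit3* varied by 0.555. These are descriptions without a test, and they take in the difference between strains.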

How the data were processed

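Total RNA of each gland was labelled and hybridized to an Affymetrix Rat Genome array, 5 of ACI and 5 of BN rats. The deposited values are log2 expression per probe set, which the authors made with GCRMA (version 2.18.1 in the submitters' processing notes), a method that corrects background by probe sequence and normalizes arrays together. The sources used here do not say which arrays were normalized jointly, and arrays carry no count depth, so that their number limits the precision.

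The values were used as deposited. Of 31099 probe sets, 57 controls were left out. Of the 31042 tested, 20826 have 1 gene symbol, 436 several and 9780 none in the platform annotation, and symbols were updated by gene ID through RefSeq (20758 matched). A gene is represented by its probe set with the highest mean. ACI was compared with BN by limma 3.58.1 under R 4.3.3 on strain alone with Benjamini-Hochberg adjustment over all probe sets, and by a two-sided exact permutation test over the 252 arrangements of 5 rats against 5. The fit was tested on simulated data. For differences between groups the methods state a two-sided Student's t-test, without naming the arrays; limma was used here, and that test was run as an alternative.

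The genes described and all lists were chosen with earlier results of these data known. Named pathway genes are, for each list, the up to 2 called genes that changed most toward either strain, and for each called gene of the 10 the 3 with the most similar profile. Promoter windows came from RefSeq (GRCr8) and motifs were matched exactly on both strands. The alternatives were the replicate number or animal ID series as a block, each series alone, leaving out BN rats 4 and 5 or each rat in turn, a minimum mean of 4, quantile normalization, centring, the methods' t-test, a trended and robust variance, the mean over probe sets of a gene, marker list means as covariates and a mismatch in the ERSE.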

Additional observations from a re-analysis of the deposited data

Results flagged for a closer look

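In 61 groups of 5 rats checked for 1 rat that stands apart, 22 of them of the chaperone and unfolded protein response genes, 4 had such a rat, where chance gives about 1 in 20 groups. None of the 4 belonged to the 10 genes. *Phgdh* was 8.10 in BN rat 5, with the next BN rat at 8.30. *Pdia5* was 6.26 in BN rat 5, with the next BN rat at 7.13. *Sel1l* was 6.36 in ACI rat 4, with the next ACI rat at 5.83. *Atp2a3* was 3.36 in BN rat 3, with the next BN rat at 6.11.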

How the results depend on the processing

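The replicate number of the labels was tried as a block, although same-numbered rats share only a number: the correlation of their deviations from the strain means ran from -0.202 to 0.201 over the 5 pairs, and only pair 4 was above 0.1. With this replicate block 1 of the 12 probe sets and 1 of the 10 genes were called, in place of 2 and 2, namely *Hsp90b1* at -0.72 (adjusted p = 0.0237 from limma), while *Xbp1* (adjusted p = 0.0520) and *Ddit3* (adjusted p = 0.0971) missed the threshold, and 10 pathway genes were called in place of 24.

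Without 1 rat in turn, 1 to 3 of the probe sets, 1 to 2 of the 10 genes and 13 to 39 of the pathway genes were called; the pathway count was 15 without ACI rat 2, 13 without each of ACI rats 3 and 4 and BN rat 1, and 39 without BN rat 5 (13 toward ACI and 26 toward BN). The counts of probe sets, genes and pathway genes were 1, 1 and 43 in ID series S alone (18 pathway genes toward ACI and 25 toward BN), 0, 0 and 0 in series H alone, 1, 1 and 15 with a trended and robust variance (7 toward ACI and 8 toward BN), and 5, 4 and 42 when probe sets averaging under 4 were left out (24 pathway genes toward ACI and 18 toward BN). With the ID series as a block, 4 probe sets were called, and with centring 4 probe sets and 39 pathway genes (17 toward ACI and 22 toward BN). Leaving out BN rats 4 and 5 gave 51 pathway genes (18 toward ACI and 33 toward BN), and averaging the probe sets of each gene gave 40 (25 toward ACI and 15 toward BN), beside 14 and 10 as reported. The methods' t-test called 5 of the 12 probe sets and 23.9% of all at an unadjusted p under 0.05, and 3 of the 12 after Benjamini-Hochberg adjustment. With the plasma and B cell mean as covariate the counts were 0, 0 and 2, and with the luminal mean 0, 0 and 3, where strain and marker level cannot be told apart. Under the plasma and B cell covariate the log2 fold change turned to 0.43 for *Ddit3*, 0.78 for *Herpud1*, -0.26 for *Ssr2* and 1.62 for *Atp2a3*, none of them called, and under the luminal covariate to 0.32 for *Herpud1*. The interaction with the ID series was called for 1 probe set, that of *Atf6*, in the same filtered fit. With 1 mismatch allowed, 7 of the 8 windows and 1.41% of all windows held an ERSE. Differences smaller than their standard error, as for *Hspa5*, *Atf4*, *Atf6* and *Calr*, have no settled direction. The cause of these shifts was not tested. Quantile normalization and centring moved the median difference of all probe sets by -0.03 at most. Levels near 2.23 cannot be resolved, and fold changes of low probe sets are compressed there.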
